A study of Mus musculus with 2 samples.

Results

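Bile is secreted to the gut through ducts lined by biliary epithelial cells, and the genes described here encode products by which such a lining meets microbes, antibody and complement. The 7 genes were taken by name: Ltf, Slpi, Lcn2, Pigr, Wfdc2, Cd55 and Cd46, out of 55415 genes in the deposited gene table, and every one of them was found. Lactoferrin (Ltf) and lipocalin 2 (Lcn2) withhold iron from microbes. Slpi and Wfdc2 carry the whey acidic protein (WAP) domain, which Slpi uses to inhibit leukocyte proteases. Pigr, the polymeric immunoglobulin receptor, carries dimeric IgA across the epithelium and is cleaved at the luminal side to release secretory component. Cd55 and Cd46 are complement regulators: Cd55 speeds the decay of the C3 convertases, and Cd46 is described as a cofactor for the cleavage of C3b and C4b. A common heading of secreted defence genes therefore fits Ltf, Slpi, Lcn2 and Wfdc2, while Cd55 and Cd46 are membrane proteins and Pigr is a membrane receptor whose outer part is released.

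The data are single-cell transcript counts of mouse liver cells labelled biliary epithelial cells, in 2 libraries of a series on Sox9-deficient intrahepatic biliary cells. One library carries the genotype label Sox9cKO and the other Sox9con. What deletes Sox9, the strain, age, sex and number of mice, and any treatment are not given in the sources used here. With 1 library per genotype no genotype test was possible. Every difference below is a difference between 2 libraries, and its interval covers counting error only.

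The files hold 2740 cells with 14856321 transcript counts (UMIs, unique molecular identifiers) for the library labelled Sox9cKO and 3622 cells with 12811243 UMIs for the library labelled Sox9con. Median depth was 5020 and 3161 UMIs per cell, and the libraries shared 0 cell barcodes. After filtering and removal of endothelial-like and unnamed cells, 2598 and 3367 cells formed the biliary fraction, in which all 12 biliary markers examined reached 50 CPM (UMIs scaled to a total of 1000000) in both libraries. Sox9 itself stood at 122 and 146 CPM, a log2 ratio of -0.25 (95% interval -0.35 to -0.16), and its well values overlapped. Which part of the gene is deleted is not given, so this count does not check the labels. Cells of each library came from several first-round barcoding wells, 5 for Sox9cKO (A11, A12, B1, B2, B3) and 4 for Sox9con (D9 to D12). The wells were taken as technical parts of 1 library, but whether they hold separate mice is not given. Control-labelled well D9 had the highest Sox9 level of all wells, 220.5 CPM, and the lowest Lcn2 and Wfdc2 levels, although by Dixon's test none of its values for the 7 genes stood apart from the 3 other control-labelled wells. Values without D9 are given where they moved a result most.

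The upstream sequences of Ltf, Pigr and Slpi are shown because these genes had the most restricted expression of the secreted or released products, in 2 different cell groups: Ltf and Pigr were highest in one, Slpi in another. Each is 220 bases long and runs 5′ to 3′ on the gene's strand from position -250 to -31 relative to the start of the gene in RefSeq, build GRCm38.p6, which is not the GRCm39 build named for the counts. The positions are chr9:111019042-111019261 (plus strand) for Ltf, chr1:130826434-130826653 (plus strand) for Pigr and chr2:164356538-164356757 (minus strand) for Slpi. Capitals mark a match to TTGCNNAA, a C/EBP-like string, in Ltf and Slpi, and to a kappaB-like string in Pigr, with either strand searched.
Ltf: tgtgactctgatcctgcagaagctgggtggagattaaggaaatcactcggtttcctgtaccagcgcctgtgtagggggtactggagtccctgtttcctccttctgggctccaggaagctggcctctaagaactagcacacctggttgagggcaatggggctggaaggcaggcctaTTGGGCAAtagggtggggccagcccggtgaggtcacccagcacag
Pigr: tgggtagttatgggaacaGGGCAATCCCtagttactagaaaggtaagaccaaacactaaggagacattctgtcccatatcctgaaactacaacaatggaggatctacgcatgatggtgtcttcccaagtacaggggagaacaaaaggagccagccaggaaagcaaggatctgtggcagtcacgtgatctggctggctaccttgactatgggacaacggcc
Slpi: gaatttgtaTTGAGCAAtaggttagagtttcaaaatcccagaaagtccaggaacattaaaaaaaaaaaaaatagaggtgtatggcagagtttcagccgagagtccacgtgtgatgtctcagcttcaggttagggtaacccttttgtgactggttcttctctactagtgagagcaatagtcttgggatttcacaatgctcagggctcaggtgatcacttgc

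Windows from 250 bases before to 50 bases after the start were searched for all 7 genes. TTGCNNAA occurred in 3 of the 7, at -75 in Ltf, -241 in Slpi and -216 in Lcn2, where the letters were TTGCTCAA. Of 32851 promoter windows of the same length, 10.8% held it. The kappaB-like string occurred in Pigr at -232 and in Cd55 at -61, against 20.7% of all windows. TTCNNNGAA occurred once, in Pigr, against 8.30% of windows, and TGANTCA in none of the 7, against 7.81%. No matches of different strings overlapped in these 7 windows, and a match is a run of letters, not a measured binding site.

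In the whole biliary fraction, Ltf and Lcn2 were higher in the library labelled Sox9cKO, and Slpi, Pigr, Wfdc2 and Cd46 were lower, while the interval of Cd55 included no difference. A change of at least 2-fold was seen for 2 members upward (Ltf and Lcn2) and 1 downward (Cd46), against 2.19% and 1.79% of the 9322 genes with at least 200 UMIs. Without D9 those shares were 2.63% and 4.37% of 8886 genes. The well values of the 2 libraries did not overlap for Ltf, Slpi, Lcn2 and Cd46, 4 of 7 members. Ltf and Lcn2 were among the 7.63% of tested genes with all Sox9cKO-labelled wells higher, and Slpi and Cd46 among the 8.35% with all lower, 16% in either direction. Over all tested genes the median log2 ratio was -0.07, with 95% of genes between -0.92 and 0.93.

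Ltf (ENSMUSG00000032496) measured 20.4, 21.3, 19.3, 7.07 and 22.3 CPM in wells A11, A12, B1, B2 and B3 of the library labelled Sox9cKO. It measured 0.26, 0.64, 1.88 and 1.99 CPM in control-labelled wells D9, D10, D11 and D12. Every Sox9cKO-labelled well was above every control-labelled well, with B2 the lowest of its library. Summed, 261 against 13 UMIs gave 18.2 (16.04 to 20.5) and 1.07 (0.57 to 1.83) CPM, a log2 ratio of 4.04 (3.29 to 5.02), at the 99.8th percentile of tested genes.

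Lcn2 (ENSMUSG00000026822) measured 479, 397, 496, 344 and 309.9 CPM in Sox9cKO-labelled wells A11, A12, B1, B2 and B3. It measured 128, 208, 247 and 235 CPM in control-labelled wells D9 to D12. The groups of wells did not overlap, but the nearest pair was only 0.32 apart on the log2 scale. The summed levels of 399 (389 to 409.95) and 196 (188 to 204) CPM gave a log2 ratio of 1.03 (0.96 to 1.10), just past 2-fold. Without D9 it was 0.81, and with cells thinned to 2000 UMIs it was 0.90, both short of 2-fold.

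Slpi (ENSMUSG00000017002) had the least spread between wells of the 7 genes: 14.4 to 19.5 CPM in the library labelled Sox9cKO and 25.2 to 28.2 CPM in the other. All 20 pairs of wells across the libraries had the lower value in Sox9cKO, and the ratio of 16.4 to 26.4 CPM was -0.68 (-0.93 to -0.44) on the log2 scale. The other WAP gene, Wfdc2 (ENSMUSG00000017723), spread far more. It ranged from 45.4 to 85.0 CPM over the Sox9cKO-labelled wells, and stood at 102, 137 and 119 CPM in D10 to D12 but at 37.6 in D9, below every other well. Its ratio was -0.63 (-0.76 to -0.50) with all wells and -0.98 without D9.

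Pigr (ENSMUSG00000026417), the antibody transporter, ranged from 261 to 412 CPM over the Sox9cKO-labelled wells and stood at 567, 561 and 484 CPM in D10 to D12. Well D9, at 328 CPM, fell inside the Sox9cKO range. The summed ratio was -0.55 (-0.61 to -0.49), and -0.74 without D9.

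Of the complement regulators, Cd46 (ENSMUSG00000016493) measured 27.1, 18.1, 18.5, 16.97 and 13.7 CPM in A11, A12, B1, B2 and B3, and 36.6, 43.8, 33.9 and 33.4 CPM in D9 to D12. The wells did not overlap, and the ratio was -1.01 (-1.24 to -0.79), so that it lay at the edge of 2-fold, and short of it at -0.95 with edgeR's TMM scaling. Cd55 (ENSMUSG00000026399) overlapped between libraries, with 35.6 to 60.8 CPM against 39.9 to 56.4, a ratio of -0.12 (-0.29 to 0.04). In RefSeq the Cd46 range overlaps that of Cr1l, another complement regulator, Cd55 has an antisense partner, Cd55os, and Slpi overlaps Mir7678. Whether strand was used in counting is not stated, so how reads in the shared ranges were assigned is not known here. Cr1l was counted as its own gene, with 1203 and 1579 UMIs against 264 and 452 for Cd46. Cd55b, a near copy of Cd55, had only 6 and 8 UMIs.

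**Figure D1:**
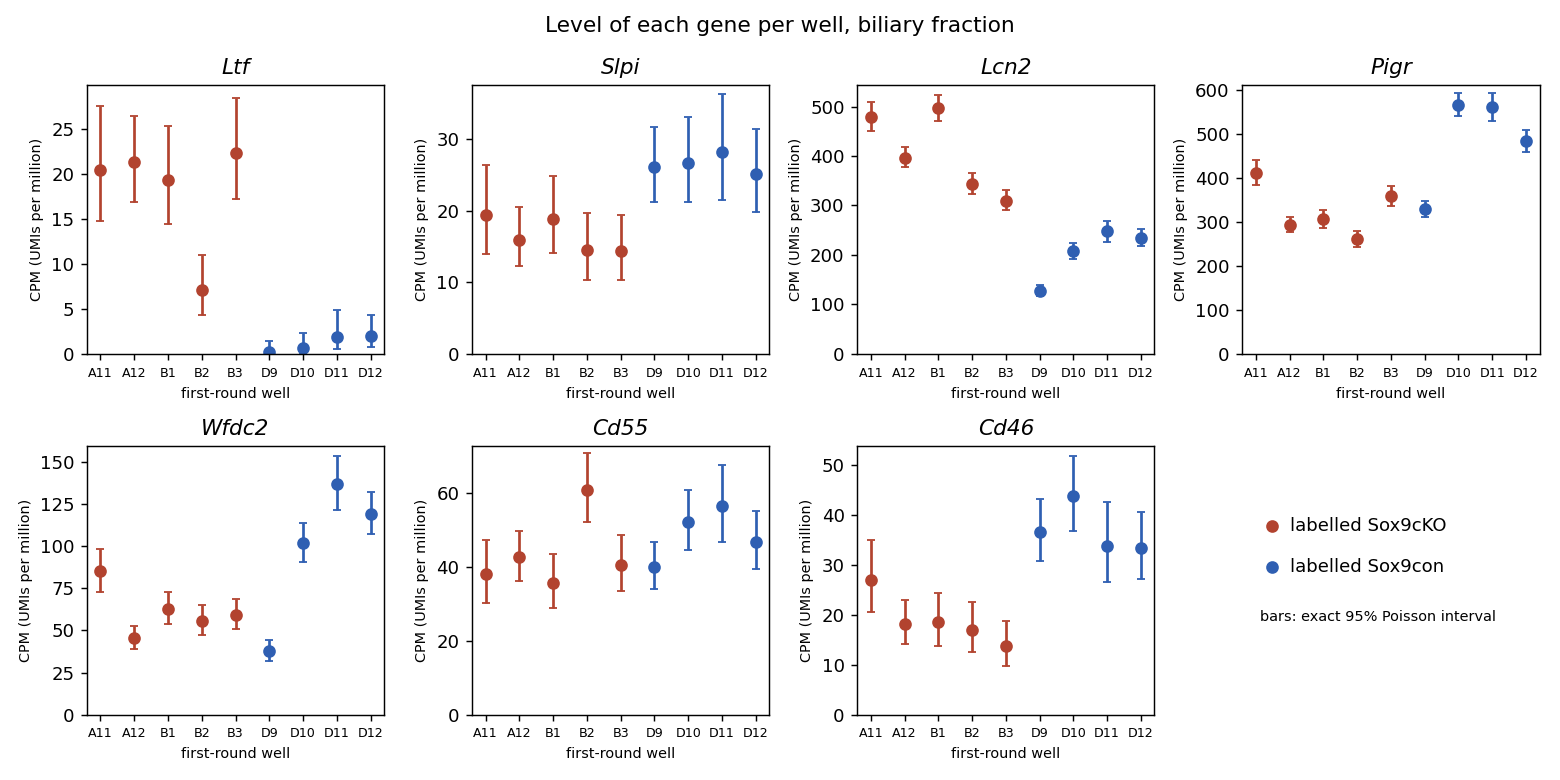
Level of each gene (CPM, vertical axis from 0) in each first-round well of the biliary fraction (horizontal axis), red for the library labelled Sox9cKO and blue for Sox9con, with exact 95% Poisson intervals. Ltf, Slpi, Lcn2 and Cd46 separate the wells by library, and well D9 lies low for Lcn2, Pigr and Wfdc2.

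The biliary fraction was divided into 8 clusters of cells, with the 7 genes and Sox9 left out of the clustering. Clusters are called by number because most came mainly from 1 library. Clusters 0 (led by Slit3 and Ptgs2) and 4 (Hp and Serpina1b) held 1206 and 504 Sox9cKO cells against 101 and 1 control-labelled cells. Clusters 1 (Car4 and Akr1b7), 2 (Gm42031 and Hilpda) and 7 (Adgrv1 and Ctnna2) held 1024, 732 and 654 control-labelled cells against 120, 23 and 70. Both libraries supplied cluster 3 (Muc6 and Bcl11a, 473 and 475 cells), cluster 5 (Lypd6 and Anxa10, 140 and 197) and cluster 6 (Dnah12 and Gm47507, 62 and 183). Endothelial-like cells, 85 and 120, served as the background, since most of these products are not expected there and free RNA gives every cell some counts. Their median depth was 2399 and 2350 UMIs against 5128 and 3226 in the biliary fraction, so their CPM is a rough guide and not a measured free-RNA level. They had 7 and 9 of the 12 biliary markers at 50 CPM, and whether doublets or their own expression add to their counts was not tested.

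Breadth was measured by tau, which is 0 for a gene at the same level in every cluster and 1 for a gene in a single cluster. The median over tested genes was 0.363. Ltf (0.996), Slpi (0.977), Cd55 (0.874) and Pigr (0.856) were restricted. Cd46 (0.630), Lcn2 (0.617) and Wfdc2 (0.615) were broader among the 7. Since most clusters came mainly from 1 library, tau was also taken in each library alone. There it was 0.443 and 0.652 for Wfdc2, 0.504 and 0.579 for Cd46 and 0.548 and 0.718 for Lcn2 in Sox9cKO-labelled and control-labelled cells, against medians of 0.459 and 0.393. Wfdc2 was thus near the median gene in the library labelled Sox9cKO, at the 46.7th percentile. Its tau there moved with the random draw and with the clustering, as given in the last section. The lowest tau of Ltf, Slpi, Pigr and Cd55 in either library was 0.805, that of Pigr in control-labelled cells. A measure that uses no clusters, the share of cells with a UMI over the share expected if every cell held the same level, ordered them differently. It was 0.610 for Ltf, 0.620 for Lcn2, 0.642 for Slpi and 0.664 for Pigr, against a median of 0.950, so Lcn2 was uneven between cells although it was spread over most clusters. Wfdc2, at 0.921, came closest to even expression.

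Ltf was a gene of cluster 5, and there almost wholly of 1 library. Of its 261 UMIs in the library labelled Sox9cKO, 248 (95.02%) lay in the 140 cells of cluster 5, which held 6.55% of that library's biliary UMIs. Of those cells 65 (46.4%, 38.0 to 55.0%) had an Ltf UMI, with up to 15 in 1 cell. Among the 197 control-labelled cells of cluster 5, only 2 cells had any, with 3 UMIs between them. The levels of 264 (232 to 298) and 2.99 (0.62 to 8.73) CPM gave a log2 ratio of 6.24 (4.90 to 8.75), the 2nd highest of 5766 genes with at least 50 UMIs in that cluster. By well, Ltf in cluster 5 measured 265, 289.7, 249.5, 132 and 348 CPM in A11, A12, B1, B2 and B3. It measured 0 in D9 and D10, 5.33 in D11 and 8.10 in D12. Thus well B2, low in the whole fraction, was low within the cluster as well, and still far above every control-labelled well.

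Endothelial-like cells had 0 Ltf UMIs, in 85 and 120 cells, and a floor of 3 counts allows up to 3.53% and 2.5% of cells with a UMI. Ltf is also a product of neutrophil granules, so the 87 biliary cells with an Ltf UMI were checked for other neutrophil genes. All 10 neutrophil markers, S100a8, S100a9, Camp and Ngp among them, had 0 UMIs in those cells, while Krt19 was found in 86 of them and Epcam in 85. In the whole biliary fraction the 10 neutrophil markers together came to 0.905 CPM in either library.

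Lcn2 in cluster 5 differed between the libraries too, while Pigr did not split that way. Lcn2 measured 442 to 598 CPM in the Sox9cKO-labelled wells of cluster 5 and 13.8 to 21.3 CPM in the control-labelled wells, with 72.9% (64.7 to 80.02%) and 8.12% (4.71 to 12.9%) of cells having a UMI. The sums of 525 and 18.9 CPM were 4.76 (4.14 to 5.54) apart on the log2 scale, the 10th highest of 5766 genes. The control-labelled value of 18.9 (11.4 to 29.5) CPM was at or under the 48.3 (28.6 to 76.3) CPM of endothelial-like cells in the same library.

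Pigr had its highest level in cluster 5 of either library, and 46.1% and 33.4% of all Pigr UMIs of each. By well it measured 2686, 1866, 1946, 1889 and 3071 CPM in A11, A12, B1, B2 and B3, and 1336, 2319, 1939 and 2024 CPM in D9 to D12. These ranges overlapped. The sums, 2252 and 1893 CPM, differed by 0.25 (0.16 to 0.34) on the log2 scale. Cluster 5 made up 5.39% and 5.85% of the biliary cells of the libraries labelled Sox9cKO and Sox9con, and was high in Pigr in both and in Ltf and Lcn2 in the first.

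The Ltf and Lcn2 differences in cluster 5 were also present at equal depth. With each cell thinned to 2000 UMIs, Ltf was found in 31.6% of 133 cells against 0 of 184 (up to 1.63% by the same floor), Lcn2 in 51.9% against 3.80%, and Pigr in 75.9% against 78.8%. Wfdc2 went the other way, in 15.04% against 32.1% of cells, and its cluster 5 ratio was -1.28 (-1.69 to -0.89). Its wells there overlapped, with 29.3 to 142 CPM against 58.8 to 319.6 CPM, and D9 again gave the lowest control-labelled value. In cluster 5 as a whole, 7.3% of tested genes were at least 2-fold higher and 6.69% at least 2-fold lower in the library labelled Sox9cKO. Of the 5 members tested there, Ltf and Lcn2 were in the first set, Wfdc2 in the second, and Pigr and Cd55 in neither.

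**Figure D2:**
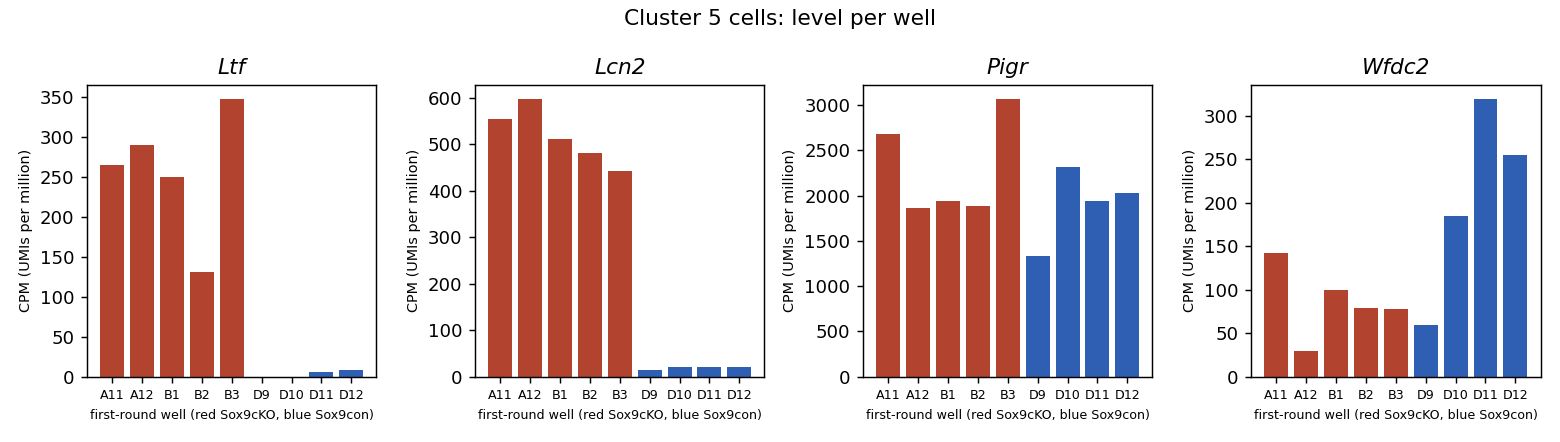
Level (CPM, vertical axis from 0) of Ltf, Lcn2, Pigr and Wfdc2 in the cells of cluster 5, one bar per first-round well, red for the library labelled Sox9cKO and blue for Sox9con. Ltf and Lcn2 bars are high in all 5 red wells and near 0 in all 4 blue wells, whereas Pigr reaches 1336 CPM or more in every well.

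Slpi was held by another group of cells, cluster 6. In its 62 Sox9cKO-labelled cells Slpi measured 402 (327 to 488) CPM, in its 183 control-labelled cells 425 (374 to 482) CPM, and 31 of the 62 and 94 of the 183 cells had a UMI. Within cluster 6 the libraries thus differed by -0.08 (-0.43 to 0.26) on the log2 scale, although Slpi was lower in the library labelled Sox9cKO as a whole. By well the level ran from 163 to 701 CPM over the Sox9cKO-labelled wells, each with 12 or 13 cells, and from 322 to 612 CPM over the control-labelled ones. Cluster 6 supplied 76.0% of control-labelled Slpi UMIs, but 42.8% of those in the other library.

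A second source of Slpi was cluster 4, with 92 UMIs, 39.0% of the Slpi of the library labelled Sox9cKO, at 27.4 (22.1 to 33.6) CPM. It had 1 control-labelled cell, so no comparison could be made. Cluster 7 held Slpi at 20.7 and 24.5 CPM. Of its 55 control-labelled UMIs, 33 came from D9, and without that well the level was 14.7 CPM, near the 13.4 CPM of endothelial-like cells. No other biliary cluster exceeded 5.48 CPM, under the endothelial-like levels of 7.63 and 13.4 CPM. At an equal mix of clusters, the Slpi ratio between the libraries was -0.046, and that of Pigr -0.12. Both libraries were given the same cluster weights there, set by the UMIs that both had in a cluster. Cluster 4 thus counted for almost nothing, although it held 39.0% of the Slpi UMIs of the library labelled Sox9cKO. Outside the biliary fraction, an unnamed cluster of 19 cells led by Cacna1c and Gfpt2, with 5 of 6 mesothelial markers at 50 CPM, held 27 Slpi UMIs in 3 of its 12 Sox9cKO-labelled cells and 0 in its 7 control-labelled cells.

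Lcn2 was spread over most clusters, but not all. In the library labelled Sox9cKO it was highest in cluster 0, at 574 CPM, which held 68.6% of its UMIs, and in cluster 5, and it measured 195 to 299 CPM in clusters 1, 2, 4, 6 and 7. In the control-labelled library it was highest in cluster 2, at 406 CPM, followed by 283 CPM in cluster 1 and 223 CPM in cluster 0, with 79.6 CPM in cluster 7 and 47.1 in cluster 6. Cluster 3, the one led by Muc6, was low in both, at 42.4 (34.3 to 51.8) and 29.4 (22.4 to 37.8) CPM, which did not exceed the endothelial-like levels of 34.3 and 48.3 CPM beyond counting error. The library ratio also turned with the cluster: 1.37 in cluster 0, 2.02 in cluster 6 and 1.61 in cluster 7. It was -0.42 (-0.78 to -0.09) in cluster 1 and -0.81 in cluster 2, the last with 23 Sox9cKO-labelled cells. Sox9cKO-labelled and control-labelled wells overlapped in all of these clusters. They ran from 481 to 733 against 48.4 to 714 CPM in cluster 0 and from 16.3 to 429 against 28.7 to 64.3 CPM in cluster 6. In cluster 7 they ran from 96.1 to 557 against 54.7 to 121 CPM. Without D9, which held 64 of the 101 control-labelled cells of cluster 0, the level there was 366 CPM and the ratio 0.65. At an equal mix of clusters it was 1.31.

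Outside cluster 5 Pigr was lower but widespread, and in some clusters no higher than in endothelial-like cells. The latter had 126 (86.6 to 177) and 177 (137 to 225) CPM of Pigr, and 27.1% and 35.8% of them had a UMI. Cluster 0, with 174 and 140 CPM, and cluster 4, with 161 CPM, lay within those intervals. Above them, in the control-labelled library, were cluster 2 with 282 CPM, cluster 3 with 429.7, cluster 6 with 568 and cluster 7 with 515. Clusters 3, 6 and 7 measured 243, 235 and 203 CPM in the library labelled Sox9cKO, so that Pigr was lower there by -0.82, -1.27 and -1.34 on the log2 scale.

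Wfdc2 was the most even of the secreted products. In the control-labelled library it was highest in cluster 5 with 191 CPM, cluster 1 with 145 and cluster 3 with 120.04, and lowest in cluster 7 with 19.1, which did not exceed the 26.8 CPM of endothelial-like cells. In the other library it lay between 33.1 and 78.6 CPM in all 8 clusters. The gap was largest in clusters 5, 1 and 3, with log2 ratios of -1.28, -1.07 and -1.02. At an equal mix of clusters it was -0.89. Well D9 was low for Wfdc2 in those clusters too, with 54.2 CPM in cluster 1 and 44.7 CPM in cluster 3, against 149 to 185 and 125 to 174 CPM in the other control-labelled wells.

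The complement regulators differed in where they were found. Cd55 was a gene of cluster 3, at 162 (145 to 179) and 189.6 (171 to 209) CPM, with 57.6% and 66.8% of its UMIs, and it lay at or under 9.63 CPM in clusters 2, 4 and 7. Cluster 3 wells overlapped, with 120.2 to 207 CPM against 170.4 to 214. Endothelial-like cells had more Cd55 than any biliary cluster, 267 (208 to 337) and 376 (316 to 443) CPM, so for this gene they were a source, not a background. Cd46 was low and diffuse. In the control-labelled library it was highest in clusters 2, at 60.8 CPM, and 1, at 42.5 CPM, above the 8.05 (1.66 to 23.5) CPM of endothelial-like cells. In the library labelled Sox9cKO its highest level, 25.1 CPM in cluster 0, lay within the endothelial-like interval of 6.19 to 44.5 CPM. Its ratio at an equal mix of clusters was -0.80.

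**Figure D3:**
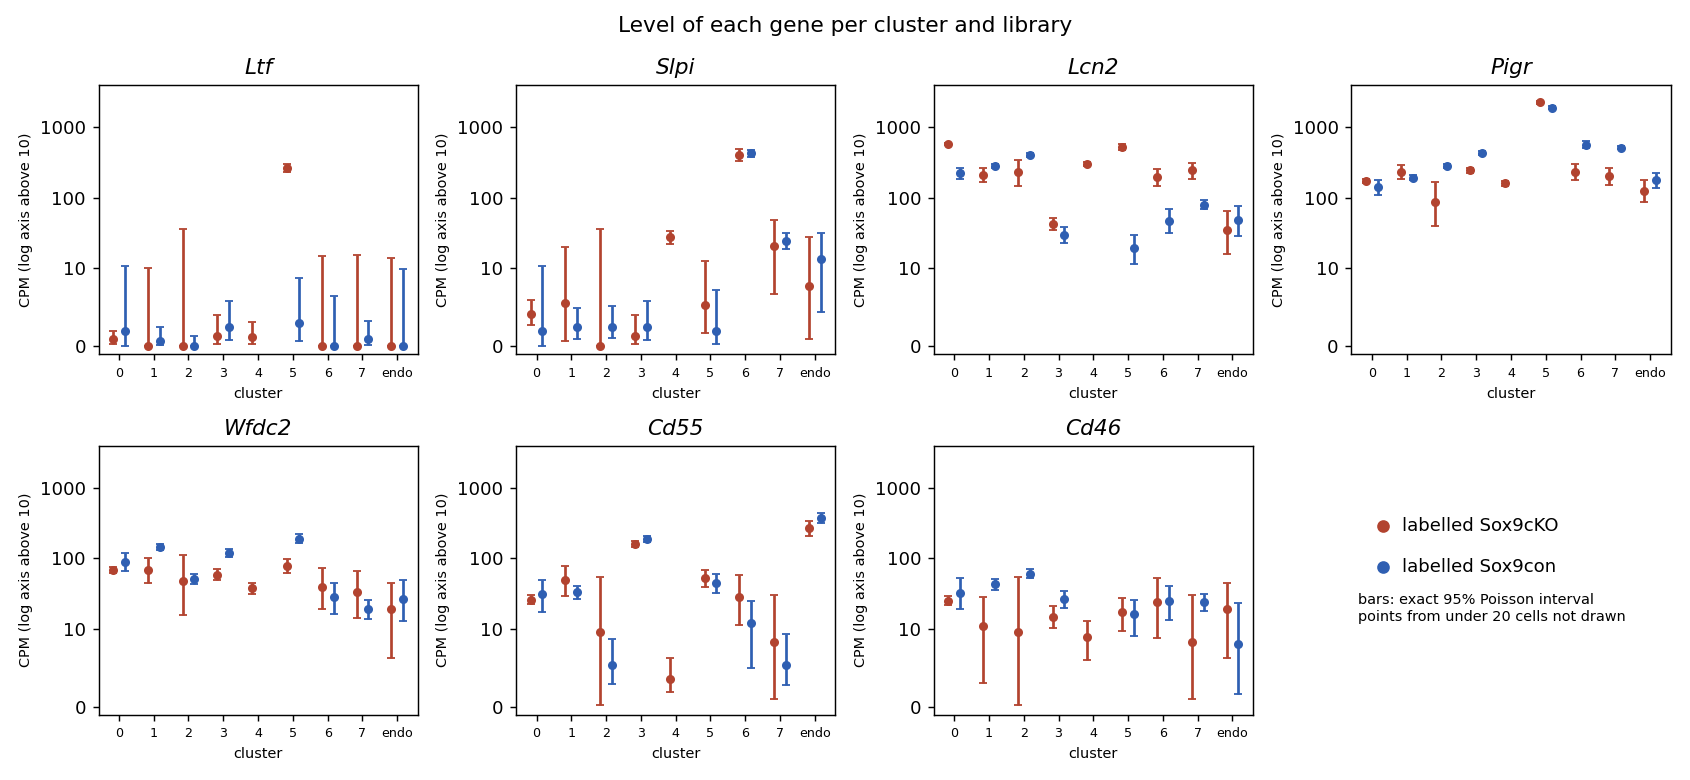
Level of each gene (CPM, linear up to 10 and log above) in each of the 8 clusters and in endothelial-like cells (endo), red for the library labelled Sox9cKO and blue for Sox9con, with exact 95% Poisson intervals, and with groups under 20 cells not drawn. Ltf stands out in cluster 5 of 1 library, Slpi in cluster 6 of both, Pigr in cluster 5 of both and Cd55 in cluster 3 of both.

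Shares of cells with a UMI were compared at 2000 UMIs per cell, which kept 2459 and 2803 biliary cells and left out 139 and 564 shallower ones. Lcn2 was found in 37.0% (35.1 to 38.9%) of the Sox9cKO-labelled and 20.3% (18.8 to 21.8%) of the control-labelled cells, and in 5.36% and 5.41% of endothelial-like cells. Unthinned, the Lcn2 shares were 52.5% and 25.5%. Pigr was found in 28.8% and 41.6%, although the unthinned shares, 49.9% and 52.9%, were close, the deeper library being the one labelled Sox9cKO. Wfdc2 was found in 11.4% and 16.4% of cells, Cd55 in 6.71% and 6.89%, and Cd46 in 3.17% and 6.49%. Slpi was found in 2.48% (1.90 to 3.18%) and 2.997% (2.40 to 3.70%), and Ltf in 1.99% and 0.107%.

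Most cells had few of the 7 transcripts at this depth. None was found in 35.2% of Sox9cKO-labelled and 31.5% of control-labelled cells, 1 in 42.3% and 46.1%, and 2 in 18.6% and 18.9%. The most in any cell was 4 of 7, in 7 cells of each library.

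Co-detection was counted for all 21 gene pairs as the cells with a UMI of both, against the number expected from the 2 shares. In the library labelled Sox9cKO, 16 pairs had at least 5 expected cells, and the interval lay above the expected number for 3 and below it for 1. Ltf and Pigr were found together in 41 of the 49 cells with Ltf, where 14.1 were expected, a ratio of 2.90 (2.08 to 3.94). Ltf and Lcn2 shared 33 cells, where 18.1 were expected, and Slpi and Pigr 30, where 17.6 were expected. Lcn2 and Cd55 were below it, with 17 cells where 61.0 were expected. With cells thinned to 1000 or to 3000 UMIs instead, these calls held for Ltf with Pigr, Ltf with Lcn2, and Lcn2 with Cd55, but not for Slpi with Pigr, at 1.25 (0.60 to 2.29) and 1.18 (0.80 to 1.68).

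When the expected numbers were taken within clusters, the first 3 pairs were still found more often than expected, but with intervals that included 1. The interval of Ltf and Pigr is too wide, since the shared cells could not exceed the 49 with Ltf. The ratio was 1.23 (0.88 to 1.67) for Ltf and Pigr, with 33.4 cells expected, 1.32 (0.91 to 1.85) for Ltf and Lcn2, and 1.46 (0.98 to 2.08) for Slpi and Pigr. Lcn2 and Cd55 remained below the number expected within clusters, 36.4 cells, at a ratio of 0.47 (0.27 to 0.75). That ratio was 0.70 (0.51 to 0.95) at 3000 UMIs per cell and 0.60 (0.30 to 1.07) at 1000, where its interval included 1. Within cluster 5 of that library, Pigr was found in 97.6% (87.4 to 99.9%) of the 42 cells with Ltf. It was found in 65.9% (55.3 to 75.5%) of the 91 cells without, and these intervals did not overlap. The median unthinned depth of these cells was 6442 and 6705 UMIs, so the Ltf cells were not the deeper ones. Lcn2 was found in 59.5% and 48.4%, with overlapping intervals, and Slpi in 0 of either set.

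In the control-labelled library 15 pairs had at least 5 expected cells, with 2 above and 4 below. Lcn2 and Cd46 shared 56 cells where 36.9 were expected, and Wfdc2 and Cd55 50 where 31.7 were expected. Slpi was found with Lcn2 in 5 cells where 17.1 were expected and with Wfdc2 in 4 where 13.8 were expected. Lcn2 was also below expectation with Pigr, 200 against 236 cells, and with Cd55, 21 against 39.2. At both 1000 and 3000 UMIs per cell the calls held for Lcn2 with Cd46, Slpi with Lcn2, and Lcn2 with Cd55. At 1000 the other 3 were lost, namely Wfdc2 with Cd55, Slpi with Wfdc2, and Lcn2 with Pigr. Within clusters none of these 6 pairs departed from its expected number beyond counting error at 2000 or 3000 UMIs. At 1000 UMIs, Lcn2 with Cd46 was above it, at 1.71 (1.18 to 2.40), and Slpi with Lcn2 below it, with 0 cells where 5.22 were expected (upper limit of the ratio 0.71). At 3000 UMIs, Wfdc2 with Cd46 was below it, at 0.56 (0.33 to 0.87), a pair with no call at 2000.

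**Figure D4:**
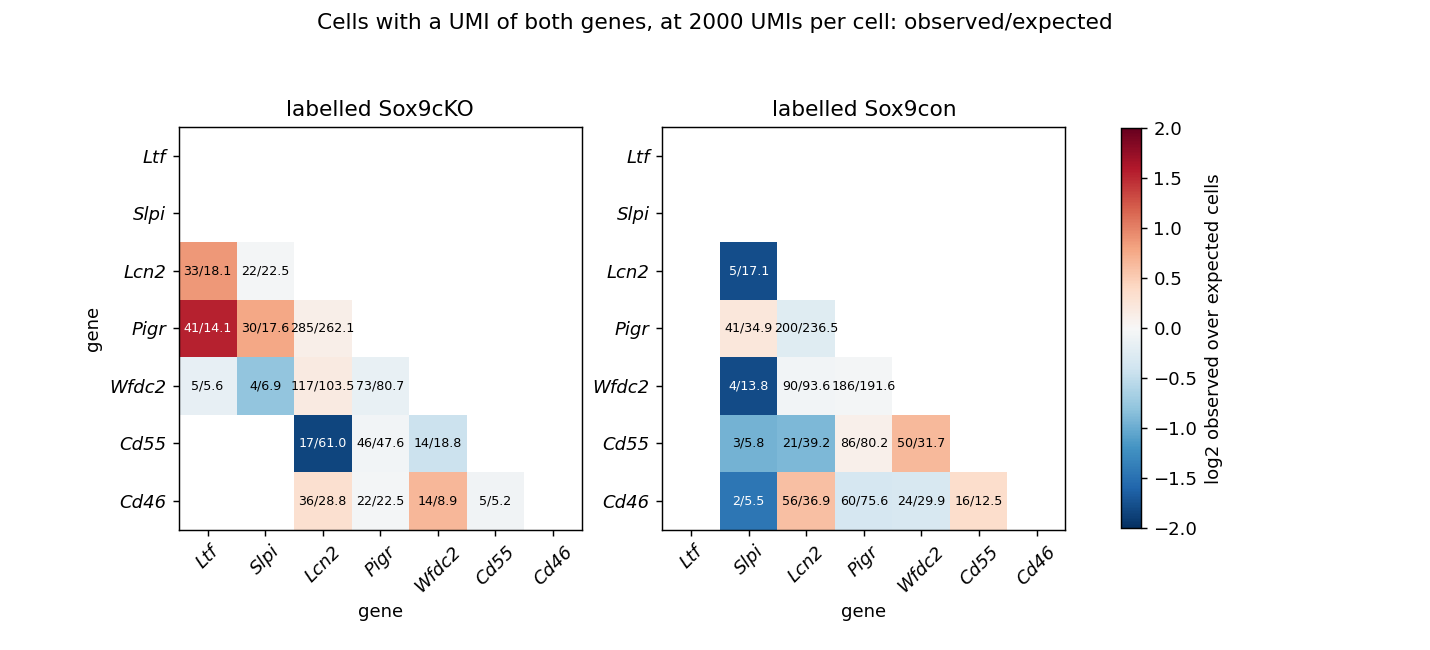
Cells with a UMI of both genes over the number expected from the shares of each (printed in each square as observed/expected), for each gene pair with at least 5 expected cells, at 2000 UMIs per cell. Colour is the log2 ratio of observed to expected: Ltf with Pigr (41/14.1) is the reddest square on the left, and Lcn2 with Cd55 is blue on both sides.

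Across 14 cluster-by-library groups of at least 50 cells, the 7 genes did not form a single pattern. Between members, the highest Pearson r of log2(CPM + 10) was 0.66, for Ltf and Pigr, followed by 0.61 for Wfdc2 and Cd55, and the lowest was -0.60, for Slpi and Wfdc2. Groups of the same library share its depth, and r is given as a description. Ltf stood at 264 CPM in cluster 5 of the library labelled Sox9cKO and at most 2.99 CPM in the other groups. Its r values, that with Pigr among them, thus rest mainly on that group, and those of Slpi on cluster 6. Of 4589 genes with at least 1000 UMIs, those most like Ltf were Zfp292 (r = 0.91), Ero1a, Nck2, Fnbp1 and Esrrg. Those most like Slpi were Stat5b (0.96), Ints2, Nup210l, 2610037D02Rik and Ppp1r10, and those most like Lcn2 were H6pd (0.92), Arhgef17, Tnfaip2, Septin9 and Rrbp1. For Pigr they were Pcmtd1 (0.90), Map3k13, Acbd5, Ipmk and Ncoa7, and for Wfdc2 Cotl1 (0.93), Krt7, Ap1s3, Lgals3 and Smpd3. Cd55 was most like Golim4 (0.95), Fam3d, Nt5c2, Ccdc6 and Runx1, and Cd46 most like Ctbp2 (0.94), Ssr2, Sh2d4b, Myo1d and Oaf.

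Related genes were counted from lists, members left out, over genes with at least 200 UMIs. Of 11 complement genes, 5 were at least 2-fold higher in the library labelled Sox9cKO and 0 at least 2-fold lower, against 2.19% and 1.79% of all tested genes, with a list median of 0.36 against -0.07 for all genes. The 5 were the components C3 (log2 ratio 2.01), factor B (Cfb, 1.90) and Masp1 (1.64), the C3b-cleaving protease factor I (Cfi, 1.60), for which Cd46 is a cofactor, and vitronectin (Vtn, 4.38). The lowest was the regulator Cr1l, at -0.63. The 5 higher genes all had their highest level in cluster 4, which held 504 Sox9cKO-labelled cells and 1 control-labelled cell. That cluster held 43.4% of Vtn, 47.5% of Masp1, 35.4% of Cfb, 31.1% of C3 and 31.0% of Cfi UMIs. C3 measured 1542 against 382 CPM, while Cd46 was lower in the library labelled Sox9cKO. Whether the 2 differences are linked was not tested.

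Of 6 other antimicrobial, iron-handling or acute-phase genes, 2 were at least 2-fold higher, beside the same 2.19% of all tested genes. One was the haemoglobin-binding haptoglobin (Hp, 5.84, with 92.7% of its UMIs in cluster 4). The other was the nitric oxide synthase Nos2 (1.97), an enzyme and not a secreted product. The lowest was the lectin Reg3g, at -0.95, and the list median was -0.39. On a list drawn up for IgA transport and epithelial antibody handling, 1 of 9 genes was at least 2-fold higher, Egfr (1.07), and none lower. This stands beside 2.19% and 1.79% of all tested genes, and the lowest on the list was Aldh1a1 (-0.68). Egfr is a growth factor receptor and Aldh1a1 a retinaldehyde dehydrogenase, so neither value describes antibody transport itself. The list median was -0.02. Among 31 genes of NF-kB, IL-17, IL-22 and interferon signalling, 1 was at least 2-fold higher and 1 lower, beside the same 2.19% and 1.79%. They were Tnfrsf1b, a TNF receptor (1.17), and Cebpd, which encodes a C/EBP factor (-1.43). The list median was -0.22. The only other WAP gene with 200 UMIs was Wfdc18, at -1.30, and of the receptors for Lcn2 or lactoferrin only Lrp1 reached that count, at 0.57.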

How the data were processed

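UMI counts per cell and gene were deposited by the authors as whole numbers for 2 libraries made by split-pool barcoding of fixed cells. The genome build is GRCm39, per the submitters' processing notes, while the aligner, the annotation release and the use of strand are not given in the sources used here. Cells were kept with at least 500 genes, 1000 UMIs and at most 15% mitochondrial UMIs, which removed 27 and 115 cells. Scrublet marked 3 of 6362 cells (0.0472%), too low a share to treat doublets as removed. The 3 were removed, and without the 5% of cells with the highest score the results were recomputed. Kept cells were clustered without integration in scanpy 1.11.5 (2000 variable genes, 30 components, 15 neighbours, resolution 0.5), and the 7 genes and Sox9 took no part. Clusters were named from marker lists at 50 CPM with at least 3 markers, and the biliary cells were clustered again. CPM are summed UMIs scaled to a total of 1000000, with exact 95% Poisson intervals. Ratios have exact conditional binomial and shares exact Clopper-Pearson intervals, all for counting error only. Tau and co-detection used cells thinned at random to 2000 UMIs, co-detection also to 1000 and 3000. Thinning was seeded and its scripts were tested on simulated data. Normalisation factors came from edgeR 4.0.16 and DESeq2 1.42.0, used only as alternatives and with no test. Named genes were the 7, Sox9, the 5 genes most like each, list genes that were extreme or at least 2-fold apart, and the leading genes of clusters. The members and lists were chosen with earlier results of these data known.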

Additional observations from a re-analysis of the deposited data

Results flagged for a closer look

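In 14 sets of wells, 1 for each of the 7 genes in each library, the lowest or highest well was tested for standing apart from the others, and chance marks about 1 set in 20. Well B2 of the library labelled Sox9cKO stood apart for 2 genes: it had the lowest Ltf of its library, 7.07 CPM, and the highest Cd55, 60.8 CPM. Whether the wells, taken here as technical parts of 1 library, hold separate mice is not given. The cause of either value was not tested.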

How the results depend on the processing

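No paired analysis was possible because each genotype label has 1 library. No ratio that was at least 2-fold changed sign under any alternative. Library ratios (log2) that moved beyond their counting interval were, at an equal mix of clusters, Slpi -0.046, Lcn2 1.31, Pigr -0.12 and Wfdc2 -0.89; as a mean over cells, Lcn2 0.84, Pigr -0.48 and Cd55 0.12, which is the opposite sign to its -0.12; at 2000 UMIs per cell, Lcn2 0.90; and for Pigr -0.48 with TMM, -0.48 with DESeq2's factors and -0.41 with the stricter cell filter. The 204 genes at least 2-fold higher became 105 at 2000 UMIs per cell and 3849 with no gene minimum; the 167 lower became 265 with a minimum of 100 UMIs and 4256 with none. At an equal mix of clusters, in which clusters mainly from 1 library count for little, 125 were higher and 128 lower. For these tests of tau the cells were thinned in a second random draw, which gave 0.620 for Lcn2 and 0.590 for Cd46 with the clusters as reported. From there tau moved to 0.789 for Lcn2 at resolution 1 and, for Cd46, to 0.474 with the members kept in and 0.412 with 4000 variable genes. With each library clustered on its own, tau moved from 0.361 to 0.518 for Wfdc2 in Sox9cKO-labelled cells, and in control-labelled cells from 0.673 to 0.564 for Wfdc2, 0.976 to 0.836 for Ltf and 0.521 to 0.304 for Cd46. In the cluster with most Ltf, under alternatives added after seeing the data, Pigr was 0.56 at resolution 1, 0.57 with the members kept in and 0.69 with 4000 variable genes.

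Leaving out each well in turn, the ratios ranged from 3.60 to 4.49 for Ltf, -0.73 to -0.64 for Slpi, 0.81 to 1.13 for Lcn2, -0.74 to -0.44 for Pigr, -0.98 to -0.47 for Wfdc2, -0.27 to -0.06 for Cd55 and -1.14 to -0.92 for Cd46. The 2-fold calls of Lcn2 and Cd46 are therefore not stable. The count of genes higher ranged from 174 to 234 and that of genes lower from 114 to 388, the last without well D9, where 37.6% of the genes apart were higher against 55.0% with all wells. With TMM and DESeq2's factors that share was 63.6% and 64.7%. In the cluster with most Ltf, the ranges were 5.78 to 7.11 for Ltf, 4.61 to 4.82 for Lcn2, 0.089 to 0.38 for Pigr and -1.63 to -0.95 for Wfdc2. Of the co-detection ratios at 1000 and 3000 UMIs per cell or without the cells of highest Scrublet score, 84 lay within the counting interval of the reported ratio and 7 did not. The control-labelled Ltf level rests on 13 UMIs.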
